A study of Mus musculus with 6 samples.

Results

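The 10 genes described here are induced by the ERK MAP kinase pathway. Its transcribed negative feedback is represented by the phosphatase genes Dusp1, Dusp4, Dusp5 and Dusp6. To it also belong the Sprouty genes Spry1, Spry2 and Spry4 and the Spred genes Spred1 and Spred2. Etv5, a transcription factor gene induced by the same signal, is counted with these feedback genes below. All 10 were taken by gene symbol from a table of 54884 entries, in which each had 1 entry. Each of the 10 passed the filter of a mean of at least 1 FPKM that left 13702 entries for testing. FPKM, the deposited unit, counts fragments per 1000 bases of transcript in every 1000000 that were mapped, so levels of different genes can be compared per length. The cells were neural stem cells of the mouse strain C57BL/6, taken from the hippocampus at embryonic day 14 and used at passages 3 to 8. A lentivirus carried either the control siRNA circCon (3 libraries) or an siRNA against circHIPK2, a circular RNA made from the Hipk2 gene (3 libraries), whereas the series title and design call this transfection. The comparison asks what changes in these cells when circHIPK2 is silenced. circHIPK2 itself was not analysed here, so these values do not check the silencing.

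When a growth factor binds its receptor tyrosine kinase, RAS, RAF and MEK relay the signal to ERK, which switches on transcription. Among the genes it switches on are inhibitors of the same pathway. Dual specificity phosphatases remove phosphate from MAP kinases, and Sprouty and Spred proteins act upstream, at the level of adaptors, RAS and RAF. Neural stem cells are commonly grown in EGF and FGF2, and the mRNA of these genes is widely read as a gauge of ERK output. The culture medium is not stated in the labels.

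The label of the cells was checked against marker genes. All 10 neural stem cell markers were above the filter, from a mean of 6.48 FPKM for Sox1 to 980 FPKM for Fabp7. Glial markers were present too, with all 5 astrocyte genes (Gfap at a mean of 147 FPKM) and 5 of 6 oligodendrocyte lineage genes (Olig2 at 223 FPKM) above the filter. Of 7 neuronal markers 4 passed it, and none of 6 microglial, 5 endothelial or 5 mesenchymal markers did. Cx3cr1 and Ptprc of the microglial list and Lum of the mesenchymal list were listed at 0 in every library. The summed FPKM of a list ranged over the 3 control and the 3 siRNA libraries from 1942 to 2482 and 1765 to 2216 for neural stem cells, 178 to 315 and 164 to 392 for astrocytes, 327 to 355 and 255 to 324 for the oligodendrocyte lineage, and 120 to 130 and 93.4 to 105 for neurons. Each sum leans on its most abundant gene, Fabp7, Gfap, Olig2 or, for neurons, Map2 (mean 99.2 FPKM). The log2 fold changes of tested markers were above 0 for 6 stem cell, 2 astrocyte, 1 oligodendrocyte lineage and 0 neuronal genes. They were below 0 for 4, 3, 4 and 4, as was the median of all genes, and 0 of these markers were called. Liver genes summed to between 39.9 and 64.8 FPKM in the controls and to between 2.10 and 2.21 FPKM with the siRNA, where Fabp1 and Serpina1c were listed at 0. A further 9 entries, which belong to the ribosomal RNA locus or rise with it, held 0.58%, 0.43% and 0.32% of the summed FPKM of controls 1 to 3, against 11.5%, 3.24% and 19.9% of that of siRNA samples 1 to 3. These values move with the comparison, and their part in the results below was not tested. A mixture of cells cannot be told apart from a change within each cell in such bulk samples.

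Starts of transcription of 8 of the members, 9 in all because Etv5 has a pair, were found in RefSeq (build GRCm38.p6), and Dusp4 and Spry4 were not matched. Because the submitters' processing notes name the older build mm9, these coordinates are not those of the deposited table. The 250 bases before each start were searched on both strands for 6 motifs. The cyclic AMP response element TGACGTCA, bound by CREB factors, was in 1 of the 9 windows, that of Dusp1, from 143 to 136 bases before the start, against 1.55% of all 32851 windows. The CArG box, the site of serum response factor (CC, then 6 bases that are A or T, then GG), occurred only in the window of Dusp5 among the 9, against 1.47% of all windows. Dusp5 held a pair of them back to back, CCATATTTGG from 82 to 73 and CCTTATATGG from 72 to 63 bases before the start. The GC box GGGCGG was in 6 of the 9 windows and in 32.7% of all windows, and those of Dusp6, Spry2 and 1 start of Etv5 lacked it. In Dusp1 the response element lies between a pair of GC boxes, with no overlap. The AP-1 site TGANTCA (6.75% of all windows), the ETS site CCGGAAGT (2.88%) and the TATA box TATAAA (12.4%) were in none of the 9. These are matches of letters and not binding sites. The windows of Dusp1 and Dusp5, whose capitals mark these 2 kinds of site, and that of Dusp6, the most abundant phosphatase gene of the 4, which holds neither, are shown 5′ to 3′ on the strand of the gene.
Dusp1, chr17:26508473-26508722, minus strand: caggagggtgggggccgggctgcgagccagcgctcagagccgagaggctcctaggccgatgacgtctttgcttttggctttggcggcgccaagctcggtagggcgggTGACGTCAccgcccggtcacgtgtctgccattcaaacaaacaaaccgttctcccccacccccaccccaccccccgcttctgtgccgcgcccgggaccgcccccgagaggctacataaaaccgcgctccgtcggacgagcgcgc
Dusp5, chr19:53528895-53529144, plus strand: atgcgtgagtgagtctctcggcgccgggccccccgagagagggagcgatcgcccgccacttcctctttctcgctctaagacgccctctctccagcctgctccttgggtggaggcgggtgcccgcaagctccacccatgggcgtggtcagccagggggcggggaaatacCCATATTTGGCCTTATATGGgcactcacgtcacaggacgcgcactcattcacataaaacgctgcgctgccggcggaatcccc
Dusp6, chr10:99262981-99263230, plus strand: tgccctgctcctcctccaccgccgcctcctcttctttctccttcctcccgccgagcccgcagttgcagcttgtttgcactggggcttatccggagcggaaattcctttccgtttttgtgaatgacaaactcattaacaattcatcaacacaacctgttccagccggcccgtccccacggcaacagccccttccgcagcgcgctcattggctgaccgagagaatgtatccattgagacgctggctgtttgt

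In the controls the members spanned from 93.6 ± 1.37 FPKM for Spry2 to 4.10 ± 0.71 FPKM for Dusp5 (SD, n = 3 each). The order was Spry2, Dusp6, Etv5, Spry1, Spry4, Spred2, Spred1, Dusp4, Dusp1 and Dusp5. Between neighbours in this order the ranges over all 6 libraries overlapped only for Dusp6 with Etv5 and for Dusp4 with Dusp1. Dusp4 was nevertheless above Dusp1 within each of the 6 libraries, while Dusp6 was above Etv5 in 4 of the 6. With the siRNA the order of the means was the same except that Etv5 (66.6 ± 4.01 FPKM) stood above Dusp6 (61.4 ± 4.97 FPKM). The widest step lay between Spred1 and Dusp4, 2.68-fold in the controls, so that Dusp1, Dusp4 and Dusp5 formed a low group under 11 FPKM and the other 7 members lay above 19 FPKM in every library.

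**Figure D1:**
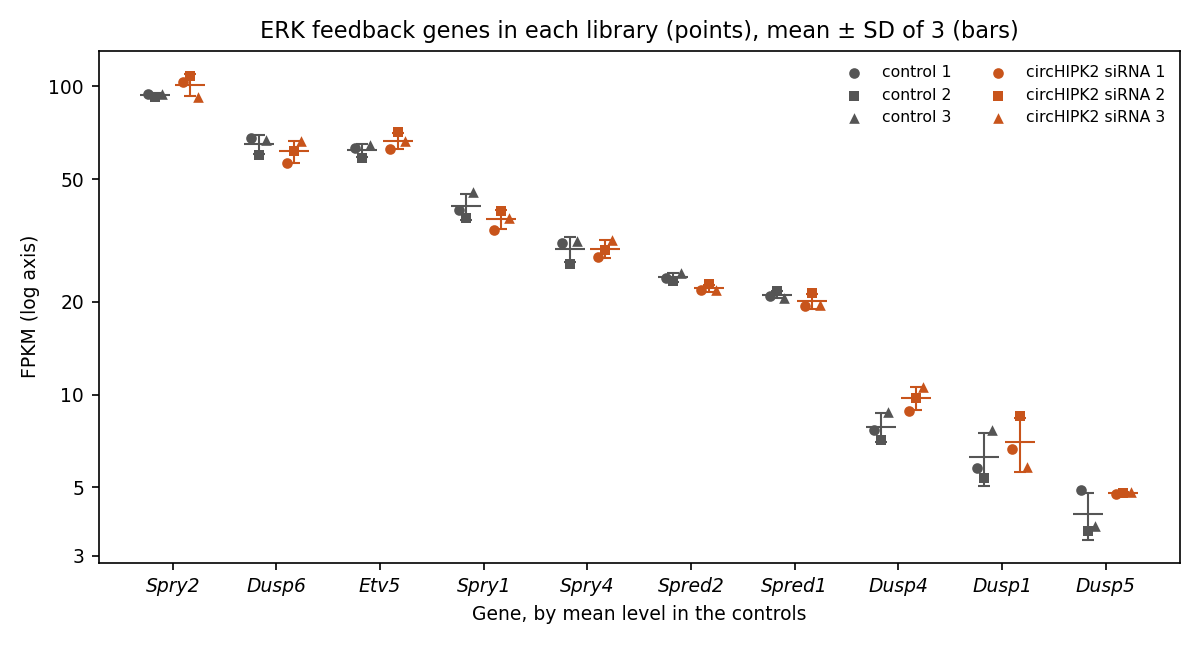
Level in FPKM (log axis) of each feedback gene, ordered by control mean, in the 3 control libraries (grey) and the 3 circHIPK2 siRNA libraries (orange); symbols mark the library number and bars the mean ± SD. The groups are apart for Dusp4, higher with the siRNA, and for Spred2, lower with it, and overlap for the other 8 genes.

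No feedback gene passed the test with circHIPK2 siRNA (0 of 10 called by limma at an adjusted p below 0.05). Over all genes tested 0.255% were called, which is 35 genes, 16 higher and 19 lower (3 and 11 after median-of-ratios scaling, a method that equalizes the typical gene between libraries). As deposited, the 19 lower included all 10 listed liver genes, and the 16 higher included 8 of the 9 entries tied to ribosomal RNA. Both lists were chosen with earlier results of these data known, so these counts describe the calls and are not independent of that choice. The adjusted p-values of the members ran from 0.259 for Dusp4 to 0.986 for Spry4 (limma, Benjamini-Hochberg). At an unadjusted p below 0.05 there was 1 member, Dusp4, which was higher with the siRNA. Of all genes tested 17.3% were below that level, 1.83% of all genes tested being higher and 15.5% lower. The log2 fold changes, on the scale of log2(FPKM + 1), lay between −0.13 for Spry1 and 0.28 for Dusp4. The median of the 10 was 0.05, beside −0.12 for all genes tested, and 9 of 10 members lay above that median, as 50% of all genes do. Whether the 3 libraries of a group came from separate cultures is not stated. The p-values therefore measure only how these libraries spread, which may be technical.

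Dusp4 encodes a nuclear phosphatase of ERK and other MAP kinases. It was measured at 7.70, 7.13 and 8.79 FPKM in controls 1 to 3 and at 8.88, 9.77 and 10.6 FPKM in siRNA samples 1 to 3. Every siRNA library was above every control, though the lowest siRNA and the highest control value nearly met. The group averages of 7.88 ± 0.84 and 9.74 ± 0.84 FPKM (SD, n = 3 each) differed by a factor of 1.24, with a log2 fold change of 0.28 (SE 0.11; 95% interval 0.02 to 0.53, not adjusted for the number of genes). This did not pass (adjusted p = 0.259, limma, Benjamini-Hochberg; two-sided exact permutation p = 0.1, the lowest possible with 3 libraries against 3). Of all genes tested, 2.65% had every siRNA library above every control. With 1 annotated transcript of 2740 nt, between 418 and 580 fragments are estimated to stand behind each value, a counting error of about 4.89% at the lowest.

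Dusp5 encodes a nuclear phosphatase that acts on ERK. Control libraries 1 to 3 had 4.91, 3.62 and 3.76 FPKM, and siRNA samples 1 to 3 had 4.74, 4.80 and 4.83 FPKM. The SD of the siRNA libraries was 0.0421 FPKM, and control library 1 alone exceeded them. The log2 fold change was 0.19 (SE 0.12; 95% interval −0.08 to 0.46; adjusted p = 0.409, limma, Benjamini-Hochberg). It was the least abundant member, with an estimated 196 to 247 fragments per library and a counting error of about 7.14% at the lowest value, which exceeds the spread among the siRNA libraries. The antisense gene AC137853.2 shares exonic bases with Dusp5, and since use of strand by the authors is not stated, reads of the pair cannot be told apart.

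Dusp1 is the classic immediate early phosphatase gene, induced by growth factors and by stress. It had 5.78, 5.37 and 7.68 FPKM in controls 1 to 3 and 6.66, 8.53 and 5.82 FPKM in siRNA samples 1 to 3. The groups overlapped, with siRNA library 2 the highest of the 6 and siRNA library 3 level with control library 1. Its log2 fold change of 0.14 had the widest interval of the 10 members (SE 0.16; 95% interval −0.23 to 0.50; adjusted p = 0.663, limma, Benjamini-Hochberg). Without siRNA library 2 it was 0.0027, and without control library 3 it was 0.27. Exons of Ergic1 on the antisense strand overlap Dusp1.

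Dusp6 encodes a cytoplasmic phosphatase that is selective for ERK, and is a standard marker of FGF signalling. It was measured at 67.7, 59.8 and 67.1 FPKM in controls 1 to 3 and at 56.4, 61.5 and 66.4 FPKM in siRNA samples 1 to 3. The groups overlapped, with siRNA library 1 alone below all controls. The log2 fold change was −0.08 (SE 0.10; 95% interval −0.32 to 0.16; adjusted p = 0.701, limma, Benjamini-Hochberg), and it turned positive under 3 of 4 other scalings.

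The Sprouty genes encode membrane-associated inhibitors of receptor tyrosine kinase signalling. Spry2, the most abundant of all 10, had 94.5, 92.0 and 94.4 FPKM in controls 1 to 3 and 103, 108 and 92.0 FPKM in siRNA samples 1 to 3. The controls lay close together, siRNA libraries 1 and 2 were above them and siRNA library 3 was level with the lowest control. Spry1 had 39.6, 37.5 and 45.3 FPKM in controls 1 to 3 and 34.3, 39.4 and 37.2 FPKM in siRNA samples 1 to 3. Here siRNA libraries 1 and 3 were under every control and library 2 was among them. Spry4 had 30.9, 26.5 and 31.5 FPKM in controls 1 to 3 and 27.8, 29.3 and 31.8 FPKM in siRNA samples 1 to 3. Its groups covered nearly the same range, with means of 29.6 ± 2.72 and 29.7 ± 2.01 FPKM (SD, n = 3 each). The log2 fold changes of Spry2, Spry1 and Spry4 were 0.11 (95% interval −0.12 to 0.34), −0.13 (−0.38 to 0.11) and 0.00 (−0.23 to 0.24), with adjusted p-values of 0.574, 0.512 and 0.986 (limma, Benjamini-Hochberg). Gm42922 shares exonic bases with Spry1 on the antisense strand.

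The Spred genes encode Sprouty-related proteins that bring the RAS inactivator neurofibromin to the membrane. Spred1 had 20.9, 21.7 and 20.6 FPKM in controls 1 to 3 and 19.4, 21.4 and 19.5 FPKM in siRNA samples 1 to 3, an overlap through siRNA library 2. Spred2 had 23.8, 23.4 and 24.8 FPKM in controls 1 to 3 and 21.8, 22.8 and 21.8 FPKM in siRNA samples 1 to 3. Every siRNA library was below every control for Spred2, as for 22.1% of all genes tested, so the separation does not set it apart. Its means of 24.0 ± 0.74 and 22.1 ± 0.59 FPKM (SD, n = 3 each) gave a log2 fold change of −0.11 (SE 0.09; 95% interval −0.31 to 0.08; adjusted p = 0.5, limma, Benjamini-Hochberg), close to the median of all genes. Spred1 had a log2 fold change of −0.07 (95% interval −0.27 to 0.14; adjusted p = 0.701).

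Etv5 encodes an ETS family transcription factor of the PEA3 group, induced by FGF and ERK. It was measured at 63.1, 58.5 and 64.3 FPKM in controls 1 to 3 and at 62.8, 70.8 and 66.2 FPKM in siRNA samples 1 to 3. Both siRNA libraries 2 and 3 were above the controls, and library 1 was among them. The log2 fold change was 0.10 (SE 0.10; 95% interval −0.12 to 0.32; adjusted p = 0.583, limma, Benjamini-Hochberg).

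The direction of the members depended on the scaling. On the values as deposited 6 had log2 fold changes above 0 and 4 below. With median-of-ratios scaling, which brings the median of all genes from −0.12 to −0.0012, all 10 were above 0. They were so too with quantile normalization, and when the 9 entries tied to ribosomal RNA were removed and the columns rescaled. After that removal the median of all genes was itself above 0, at 0.0625, close to Spry1 (0.068) and Spred2 (0.090). With columns rescaled alone the division was again 6 and 4. Dusp1, Dusp4, Dusp5, Etv5, Spry2 and Spry4 were above 0 under these 4 scalings and as deposited, whereas the sign of Dusp6, Spry1, Spred1 and Spred2 turned under 3 of the 4. After median-of-ratios scaling 4 members, Dusp4, Dusp5, Spry2 and Etv5, had every siRNA library above every control and 0 had every one below, beside 10.1% of all genes in each direction. With quantile normalization 3 members lay entirely above and 0 below (9.8% and 9.58% of all genes), with columns rescaled 0 and 0 (3.25% and 15.1%), and without the 9 entries 5 and 0 (14% and 4.29%). The log2 fold changes after median-of-ratios scaling were 0.40 for Dusp4 (95% interval 0.15 to 0.66), 0.31 for Dusp5 (0.04 to 0.57), 0.25 for Spry2 (0.10 to 0.39) and 0.24 for Etv5 (0.08 to 0.40). These intervals were not adjusted for the number of genes. With this scaling 891 of 13702 genes tested were higher at an unadjusted limma p below 0.05, and 937 were lower. None of these 4 members passed (adjusted p from 0.206 for Spry2 to 0.325 for Dusp5, limma, Benjamini-Hochberg).

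**Figure D2:**
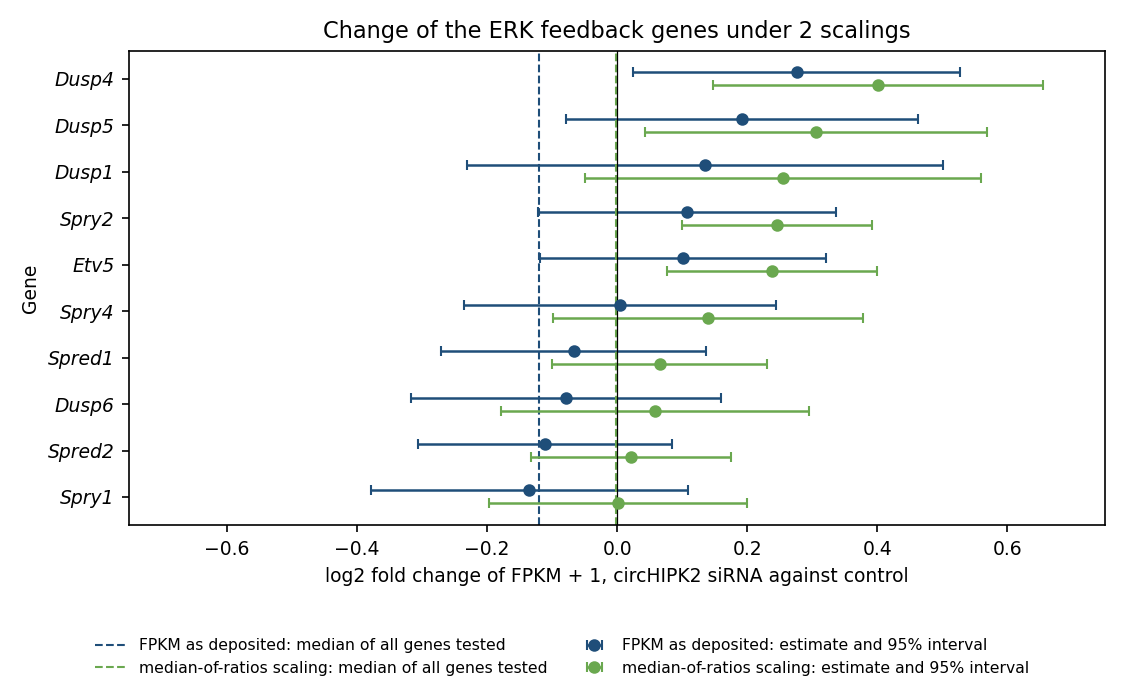
Log2 fold change of FPKM + 1 with circHIPK2 siRNA against control (points) with its 95% interval (bars) for each feedback gene, on the values as deposited (blue) and after median-of-ratios scaling (green); dashed lines give the median of all genes tested. The estimates run from −0.13 to 0.28 as deposited and from 0.00 to 0.40 after scaling, and the intervals of Dusp4, Dusp5, Spry2 and Etv5 lie above 0 after scaling. Intervals are not adjusted for the number of genes, and those of 891 of 13702 genes tested lie above 0 after scaling.

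Ratios of 2 genes within a library are free of the scaling of that library, and show unequal change without saying which gene changed. A set of 10 ratios was formed after the values had been seen. Dusp4 over Dusp6, the nuclear against the cytoplasmic phosphatase gene, was 0.114, 0.119 and 0.131 in controls 1 to 3 and 0.157, 0.159 and 0.159 in siRNA samples 1 to 3. The siRNA libraries were closer to one another than the controls were, and the mean ratio was 1.31 times that of the controls. Dusp5 over Dusp6 was 0.0725, 0.0605 and 0.0560 in controls 1 to 3 and 0.0841, 0.0779 and 0.0727 in siRNA samples 1 to 3. These groups were also separate, but siRNA library 3 stood only just above control library 1. Spry2 over Spry1 was 2.39, 2.45 and 2.08 in controls 1 to 3 and 3.02, 2.74 and 2.47 in siRNA samples 1 to 3, which again met almost end to end. Dusp1 over Dusp6, Spry2 over Dusp6, Spred1 over Spred2 and Etv5 over the related gene Etv4 overlapped between the groups. For the 6 ratios that separated the exact two-sided permutation p was 0.1, the smallest possible, and 0.167 after Benjamini-Hochberg adjustment over the 10. Of all 45 pairs among the members 16 had ratios that did not overlap. The pairs share genes and are not independent. The share over all pairs of genes was not computed, so neither this count nor the 6 of 10 has a background. For ratios to Dusp6 alone, 3.69% of all other genes tested lay entirely above the controls and 9.04% entirely below.

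**Figure D3:**
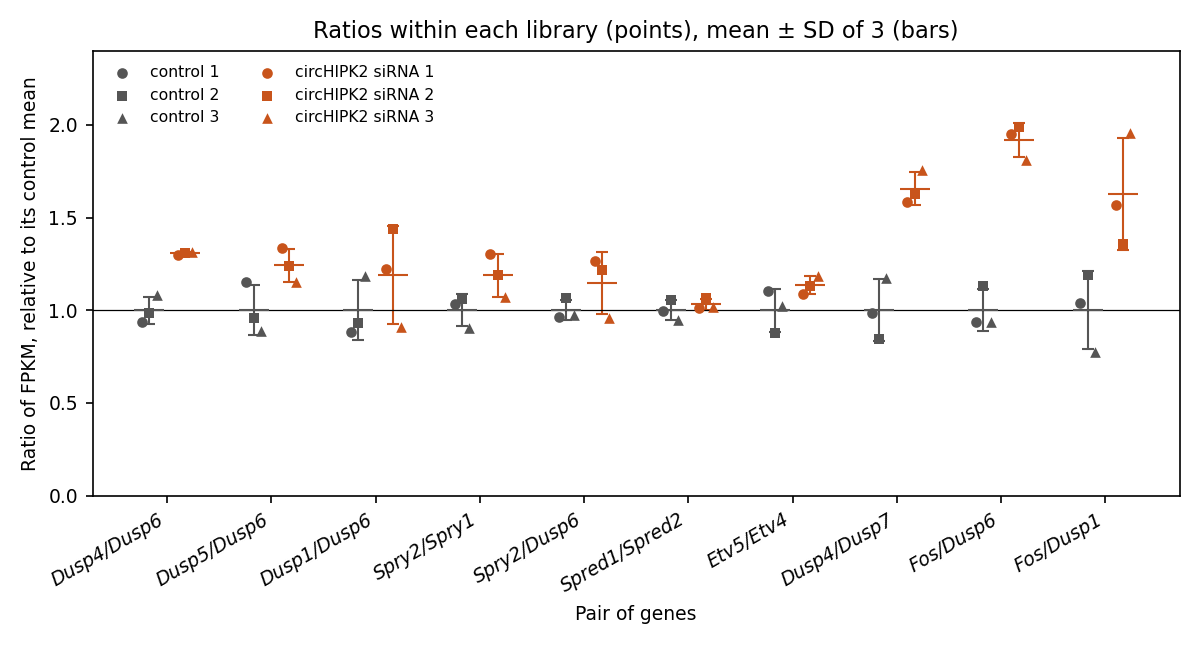
Ratio of FPKM of 2 genes in each library, divided by the mean ratio of the controls, for 10 pairs; symbols mark the library number and bars the mean ± SD of 3 control (grey) or 3 circHIPK2 siRNA (orange) libraries. The siRNA mean is 1.31 times the control mean for Dusp4 over Dusp6, and 1.92 times for Fos over Dusp6.

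Across the 6 libraries the members did not vary as 1 block. The Pearson correlation of log2(FPKM + 1) was above 0 for 30 of the 45 pairs of members, with a median of 0.21. It was highest for Spry1 with Spred2 (r = 0.88) and Spry4 with Dusp6 (r = 0.86), and lowest for Dusp5 with Spred2 (r = −0.59). These are descriptions over 6 libraries that share the scaling and the group difference. The same values for other pairs of genes were not computed, so they have no background. The genes with the highest r to Spry2, the most abundant member, were Naa80, Rab11b and Eef2k (r = 0.99 each, over 6 libraries). They were picked for the highest r among the genes tested, so its height partly reflects that choice. A high r is not an equal change. Control and siRNA means were 19.0 and 33.4 FPKM for Rab11b, 14.4 and 16.1 for Naa80, and 8.68 and 9.63 for Eef2k, while Spry2 changed 1.08-fold.

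Other genes of the pathway were read from the same limma fit in 7 lists, for 6 of which 0 genes were called. At an unadjusted p below 0.05 these 6 held 1 of 4 phosphatase genes, 0 of 3 inhibitors, 5 of 23 cascade genes, 0 of 3 repressors, 0 of 4 partners and 4 of 9 receptor genes, beside 17.3% of all genes. The seventh list, other targets of ERK, held 6 of 15. Those in the 6 lists were all lower with the siRNA, as 15.5% of all genes were, and those in the seventh all higher, as 1.83% were. Of 6 further MAP kinase phosphatase genes 4 were tested, and 0 were called in either direction. Dusp7, a cytoplasmic phosphatase gene closely related to Dusp6, had 13.4, 14.4 and 12.8 FPKM in controls 1 to 3 and 9.57, 10.3 and 10.3 FPKM in siRNA samples 1 to 3. Every siRNA library was below every control, as for 22.1% of all genes tested. The estimate of −0.40 on the log2 scale (SE 0.09) missed the threshold (adjusted p = 0.144, limma, Benjamini-Hochberg). With library weights, under which 265 genes were called lower, it passed (−0.42, adjusted p = 0.0432), and over the 18 alternatives the adjusted p ran up to 0.480. The ratio of Dusp4 to Dusp7 was 0.586 ± 0.0971 in the controls and 0.970 ± 0.0529 with the siRNA (SD, n = 3 each), and did not overlap between the groups. Dusp16, a phosphatase of stress-activated kinases, had the largest positive estimate of the 4, 0.09. Of 5 further feedback inhibitors 3 were tested and 0 called. Among them Lrig1, which restrains EGF receptors, had 125 ± 3.10 and 120 ± 15.2 FPKM, and Spred3 had 7.73 ± 1.42 and 8.06 ± 0.87 FPKM (SD, n = 3 each). Spry3 was listed at 0 in every library.

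Of 16 other genes switched on by ERK signalling 15 were tested, 1 rose and 0 fell. Fosb lay under the filter and was not tested, at 0.23 ± 0.04 and 1.29 ± 0.73 FPKM (SD, n = 3 each), with every siRNA library above every control. At an unadjusted p below 0.05 there were 6 of the 15, all with positive estimates (Egr1, Egr2, Egr3, Fos, Fosl1 and Junb), and 5 of the 15 lay entirely above the controls and 1 (Epha4) entirely below, where 2.65% and 22.1% of all genes did. The called gene was Fos, an AP-1 transcription factor gene, at 16.5, 17.6 and 16.4 FPKM in controls 1 to 3 and 28.7, 31.9 and 31.4 FPKM in siRNA samples 1 to 3 (log2 fold change 0.83, SE 0.09; adjusted p = 0.0134, limma, Benjamini-Hochberg). Leaving out control library 3 (adjusted p = 0.0585) or siRNA library 3 (adjusted p = 0.0608) ended the call, and over the 18 alternatives the adjusted p ran from 0.00467 to 0.0608. The median log2 fold change of the 15 was 0.25, against 0.05 for the 10 feedback members and −0.12 for all genes. Fos over Dusp6 was 0.244, 0.295 and 0.244 in controls 1 to 3 and 0.509, 0.519 and 0.473 in siRNA samples 1 to 3. The mean ratio was 1.92 times the control, and that of Fos over Dusp1, another immediate early gene, was 1.63 times the control, with no overlap of libraries for either. Egr1, Egr3, Fosl1 and Junb, the other tested transcription factor genes entirely above the controls, did not pass (adjusted p from 0.137 for Egr1 to 0.208 for Fosl1, limma, Benjamini-Hochberg). Egr3 and Junb, named like Etv4 and Ccnd1 after their values were seen, had 2.10 ± 0.61 and 3.66 ± 0.28 FPKM and at 2.44 ± 0.51 and 4.55 ± 0.91 FPKM (SD, n = 3 each). Etv4, of the same ETS group as Etv5, had 54.1 ± 4.18 and 50.9 ± 2.94 FPKM, and the cyclin gene Ccnd1, which promotes entry into the cell cycle, 348 ± 32.6 and 333 ± 21.2 FPKM.

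**Figure D4:**
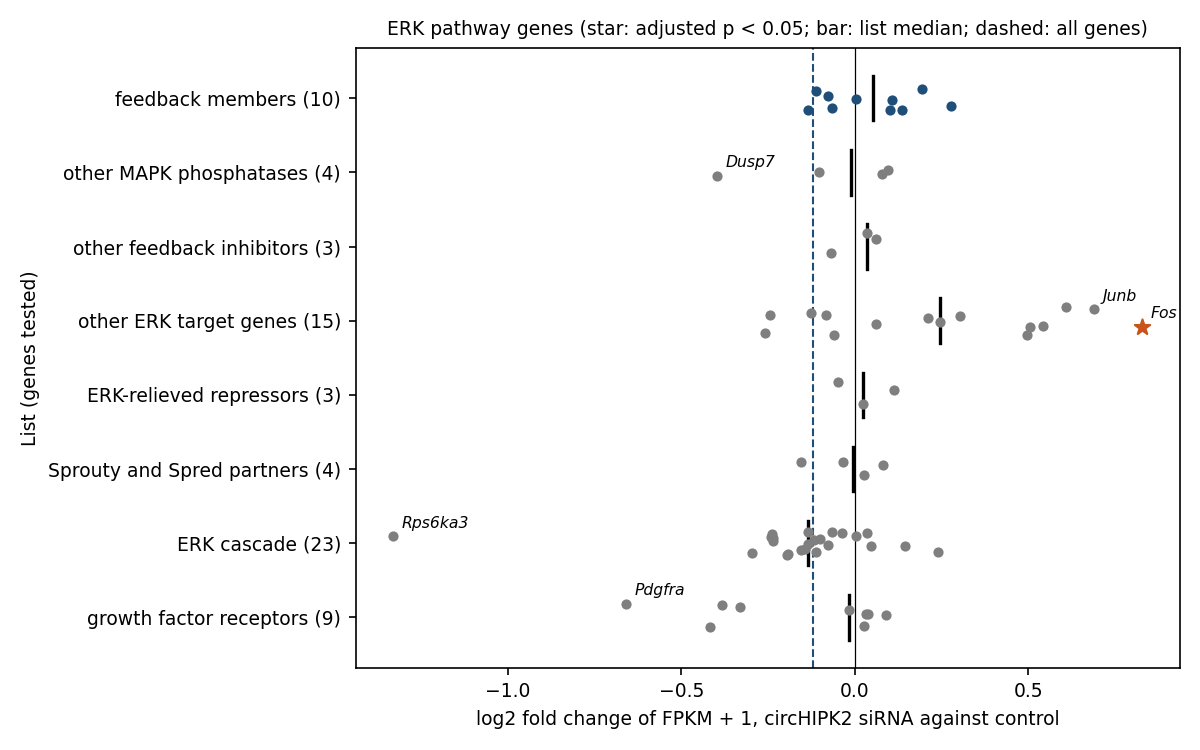
Log2 fold change of FPKM + 1 with circHIPK2 siRNA against control for the genes tested in each ERK pathway list (points, spread vertically at random), with list medians (bars), the median of all genes tested (dashed) and the 1 called gene, Fos (star). The feedback members lie between −0.13 and 0.28, and Rps6ka3 is the lowest point at −1.33.

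In the cascade itself all 23 genes were tested and 0 were called, with a median log2 fold change of −0.13, close to that of all genes. Of the 23, 8 lay entirely below the controls and 0 entirely above, where 22.1% and 2.65% of all genes did. Rps6ka3, which encodes the ERK-activated kinase RSK2, came nearest to the threshold. It had 11.5, 14.5 and 8.97 FPKM in controls 1 to 3 and 3.25, 5.47 and 3.41 FPKM in siRNA samples 1 to 3. The groups were well apart, 2.88-fold in the mean, with a log2 fold change of −1.33 (SE 0.20; adjusted p = 0.0514, limma, Benjamini-Hochberg). It passed under 5 of the 18 alternatives, with a replicate block (adjusted p = 0.00134), library weights (0.0145), rescaled columns (0.0289), a mean of at least 5 FPKM (0.0436) or control library 3 left out (0.0440), and ranged up to 0.188 under the others. The related gene Rps6ka1 had the largest positive estimate, 0.24, at 29.7 ± 2.06 FPKM against 35.6 ± 6.80 FPKM in siRNA samples (SD, n = 3 each).

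Repressors that ERK relieves, partners of Sprouty and Spred, and receptors had 0 called genes among 3, 4 and 9 tested. Cic, the gene of the repressor capicua, which acts on Etv5 and Spry genes, had 27.1 ± 2.69 and 29.4 ± 0.55 FPKM, Erf 33.0 ± 2.34 and 33.5 ± 1.27 FPKM, and Atxn1l, a partner of capicua, 9.28 ± 1.02 and 8.93 ± 0.31 FPKM. Nf1, the gene of neurofibromin, which Spred proteins bind, had 18.5 ± 2.08 and 19.6 ± 1.69 FPKM. Siah2, which encodes a ubiquitin ligase for Sprouty, had 4.20 ± 0.48 and 3.66 ± 0.0731 FPKM. Among the receptors Pdgfra, also a marker of oligodendrocyte precursors, had the lowest estimate (−0.66) at 14.0, 19.4 and 11.3 FPKM in controls 1 to 3 and 11.1, 11.6 and 5.28 FPKM in siRNA samples 1 to 3. The groups overlapped and it did not pass (adjusted p = 0.278, limma, Benjamini-Hochberg), and without siRNA library 3 the estimate was −0.34. Ntrk2, the BDNF receptor gene, was the most abundant at 69.0 ± 4.56 and 72.0 ± 17.3 FPKM. Of those tested, Erbb2 had the largest positive estimate, 0.09, at 1.46 ± 0.10 and 1.62 ± 0.0969 FPKM (SD, n = 3 each). Met lay under the filter and was not tested, at 0.35 ± 0.08 and 1.11 ± 0.06 FPKM, with every siRNA library above every control. Erbb3, Fgfr4 and Pdgfrb, also under the filter, overlapped between the groups.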

How the data were processed

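RNA was extracted with TRIzol, selected on oligo-dT beads and made into strand-marked (dUTP) libraries with unique molecular identifiers, sequenced from both ends, per the labels' protocols. The submitters' processing notes name HISAT, StringTie, edgeR and the mm9 build, without versions or roles. The annotation and the use of strand or identifiers are not stated there or in the labels. The authors deposited FPKM values, which were used as deposited.

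Depth was read from the steps of low FPKM values of genes with 1 transcript of at least 500 nt in GENCODE M21, on the assumption that the most common value is 1 fragment. In each library 40.8% to 45.2% of those values fell within 0.05 of a whole number of steps. The step was chosen to make this share largest. The 10% of an arbitrary step is therefore not its chance level, and the share does not test the depth. Depth was estimated at between 18460000 and 21910000 fragments per library, so 1 fragment of a 1 kb transcript would be worth 0.0456 to 0.0542 FPKM. These estimates cover counting error only.

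Groups followed the sample titles. Entries averaging at least 1 FPKM over all libraries were compared on the log2(FPKM + 1) scale with limma 3.58.1 in R 4.3.3 (mean-variance trend, two-sided, Benjamini-Hochberg over all entries tested), called at an adjusted p below 0.05. The + 1 understates changes of weak genes. The steps were tested on simulated data. Exact permutation tests used scipy 1.17.1. Sprouty, phosphatase and other members and all lists were chosen with earlier results of these data known. Named were all members and, per other list, the called genes or otherwise those of the highest mean, largest rise and largest fall. Genes named beyond this rule were chosen after their values were seen. A gene of the cascade that this rule picks is not reported here. There were 18 alternatives, covering pseudocount, filter, scaling, limma settings, replicate block and each library left out.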

Additional observations from a re-analysis of the deposited data

How the results depend on the processing

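No member was called under any of the 18 alternatives (lowest adjusted p 0.154, Spry2 with quantile normalization, limma, Benjamini-Hochberg), and 164 of 179 member estimates kept their sign (Dusp5 is absent with a mean of at least 5 FPKM). The counts over all genes, 16 higher and 19 lower, moved by over 1.5 times as follows, and the cause was not tested. Higher calls were 7 with no filter, 3 with median-of-ratios scaling, 4 with quantile normalization, 8 with robust moderation and 55 with library weights. Lower calls were 8 with a mean of at least 5 FPKM, 11 with median-of-ratios scaling, 12 with quantile normalization and 265 with library weights. Leaving out 1 library gave 2 to 15 higher and 6 to 23 lower calls, the fewest without siRNA library 3. Higher calls were also few without control library 2 (10) or 3 (8), and lower calls without control library 1 (12).

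Members lying entirely above the controls, 1 as deposited (Dusp4), were 4 with median-of-ratios, 3 with quantile, 0 with rescaled columns and 5 without the 9 ribosomal RNA locus entries. Members entirely below, 1 as deposited (Spred2), were 0 under each of these 4. With 1 library left out the counts ranged from 1 to 2 and from 1 to 3. A comparison of 3 against 2 libraries separates more easily. Without control library 1 or 3, or siRNA library 1 or 3, 2 members lay above. Of all entries tested, 572 of 13692, 748 of 13701, 672 of 13716 and 862 of 13746 did so, in that order. Without control library 2 or siRNA library 2, 3 members lay below, beside 4996 of 13711 and 5805 of 13698 entries.

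Signs that turned, in the order median-of-ratios, quantile and ribosomal RNA locus entries removed, gave log2 fold changes of 0.059, 0.11 and 0.13 for Dusp6, 0.00099, 0.029 and 0.068 for Spry1, 0.066, 0.078 and 0.13 for Spred1, 0.022, 0.041 and 0.090 for Spred2, 0.078, 0.072 and 0.15 for Atxn1l, and 0.071, 0.12 and 0.14 for Lrig1. Siah2 turned under the last alone (0.013), where the median of all genes was 0.0625. With library weights Spry4 was −0.072, Erf −0.028 and Spred3 −0.055. With 1 library left out, values on both sides of 0 ranged from −0.071 (without control library 2) to 0.049 for Spry4, −0.090 to 0.033 for Atxn1l, −0.033 to 0.060 for Erf, −0.13 to 0.041 for Lrig1, −0.0064 to 0.15 for Nf1, −0.064 to 0.17 for Spred3 and −0.11 to 0.24 for Ntrk2.

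The libraries share replicate numbers, but the labels state no pairing. Deviations from the group means of same-numbered libraries correlated at 0.05, 0.02 and 0.13, the last being the highest of all combinations. Those of unlike numbers ran from −0.17 (control library 3 with siRNA library 1) to 0.12 (control library 2 with siRNA library 1). With 3 libraries per group these values cannot settle whether the libraries were paired. With the replicate number as a block 23 genes were higher and 23 lower, and 0 members were called, while Rps6ka3 of the cascade passed (adjusted p from 0.0514 to 0.00134, limma).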
